A study of Mus musculus with 14 samples.

Results

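The genomic sites of the repressor GFI1B were compared with those of GATA1 and GATA2 in hematopoietic progenitors (HP). The members were all peaks of the 3 HP lists, 2018 for GFI1B, 250 for GATA1 and 530 for GATA2, of 158488 peaks in the series. Peaks that overlapped by at least 1 bp were joined into sites, and a site was called shared when it held a GFI1B peak and at least 1 GATA peak. This gave 2537 sites, of 117293 merged regions in the whole series, and they fell into 1861 GFI1B only, 157 shared and 519 GATA only sites. The peaks came from ChIP-seq, the sequencing of DNA pulled down with an antibody to a factor, in a study of successive populations on the way from mouse embryonic stem (ES) cells to macrophages, of which the lists used here cover 5. HP were CD41+ cells sorted after differentiation in vitro of a 129 strain ES line that carries a GFP reporter at Brachyury. The 3 groups share this line, strain and sort, and the labels give no treatment or mutation. CD41 is made by early hematopoietic cells and by the megakaryocyte lineage alike, and the sort does not separate them. The antibodies were Santa Cruz sc8559 for GFI1B, AbCam ab11963 for GATA1 and Santa Cruz sc267 for GATA2. Each factor had 1 list and there were no replicates. Intervals below are 95% Clopper-Pearson intervals and reflect only the error of counting, and every test compares the sites of these lists, that is 3 libraries, and not conditions. The lists give positions without a height or score, and the read totals behind them were not analysed here.

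GFI1B is a zinc finger protein that recognises DNA through its C-terminal fingers and silences genes through an N-terminal SNAG domain, which recruits the histone demethylase LSD1 (Kdm1a) with its CoREST partners (Rcor1 and relatives). GATA1 and GATA2 are zinc finger proteins that bind GATA sequences, often together with TAL1, LMO2 and LDB1 and with the cofactor FOG1 (Zfpm1). GATA2 is needed in early progenitors and GATA1 in the erythroid and megakaryocyte lineages, where GFI1B is also needed. During the endothelial-to-hematopoietic transition, GFI1 and GFI1B are known to switch off endothelial genes.

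The consensus searched for GATA was AGATAAC or AGATAAG, and for GFI1B it was AATC, A or T, C or G, A or T, and GC, which makes 8 sequences such as AATCACAGC and AATCTCAGC. Both strands were searched, and neither consensus contains the other. The following stretches of the RefSeq GRCm38 (mm10) plus strand are shown because these shared sites hold both consensus sequences. Of the 9 such sites they are the 3 with peaks of GFI1B, GATA1 and GATA2 and the one nearest to Sox7, a member of the endothelial list. Capitals mark the matches, and a GATA match on the opposite strand reads GTTATCT or CTTATCT here.
Sox7, chr14:63908666-63908762: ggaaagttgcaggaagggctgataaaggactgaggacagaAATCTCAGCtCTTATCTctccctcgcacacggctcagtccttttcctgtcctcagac
Slc16a10, chr10:40131750-40131872: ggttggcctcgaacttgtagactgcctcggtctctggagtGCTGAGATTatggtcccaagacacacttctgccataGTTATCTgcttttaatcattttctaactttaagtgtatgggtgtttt
Rpp25, chr9:57505901-57506046: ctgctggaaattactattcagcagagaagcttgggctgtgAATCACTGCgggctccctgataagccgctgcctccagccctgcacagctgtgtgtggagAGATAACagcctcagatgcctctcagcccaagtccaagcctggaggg
Asic1, chr15:99664906-99665065: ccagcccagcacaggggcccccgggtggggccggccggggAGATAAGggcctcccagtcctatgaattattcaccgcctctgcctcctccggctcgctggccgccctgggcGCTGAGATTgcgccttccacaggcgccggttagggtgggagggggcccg
The next stretches are shared sites at regulators of blood formation, chosen after their values were seen, that hold a GATA consensus or, at Runx1, a GFI1B consensus. The Runx1 match lies outside the central 400 bp of this 898 bp site, so that site does not count as a carrier in the shares of sites with a consensus given below. Capitals also mark TGTGGTT, the RUNX consensus, at Runx1 and its reverse complement at Cbfa2t3, where it runs into the GATA match.
Gfi1b downstream site, chr2:28598096-28598182: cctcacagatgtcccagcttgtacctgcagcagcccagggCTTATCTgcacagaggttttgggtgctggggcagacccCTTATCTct
Zfpm1 shared site, chr8:122313398-122313484: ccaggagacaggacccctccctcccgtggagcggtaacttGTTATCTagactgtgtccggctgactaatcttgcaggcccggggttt
Cbfa2t3, chr8:122719900-122719990: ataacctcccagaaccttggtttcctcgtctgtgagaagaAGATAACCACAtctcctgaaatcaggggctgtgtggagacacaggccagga
Runx1, chr16:92821888-92821989: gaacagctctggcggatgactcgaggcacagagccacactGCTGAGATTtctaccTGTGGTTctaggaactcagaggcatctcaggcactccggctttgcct
For contrast, the following stretches from GFI1B only sites, also chosen after their values were seen, hold the GFI1B consensus in capitals. The Fos site shown lies at 18349 bp from its TSS.
Gata2, chr6:88199849-88199937: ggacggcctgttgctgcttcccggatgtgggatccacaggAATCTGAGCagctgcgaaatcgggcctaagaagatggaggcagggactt
Id1, chr2:152734813-152734901: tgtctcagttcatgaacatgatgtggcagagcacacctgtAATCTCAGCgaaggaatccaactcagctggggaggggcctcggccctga
Fosb, chr7:19310414-19310502: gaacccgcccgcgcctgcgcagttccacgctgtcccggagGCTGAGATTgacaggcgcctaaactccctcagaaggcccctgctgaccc
Fos, chr12:85492243-85492331: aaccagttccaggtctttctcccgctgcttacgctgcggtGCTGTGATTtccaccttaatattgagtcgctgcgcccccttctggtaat
The last group comes from GATA only sites and was chosen in the same way, with the GATA consensus in capitals. Names give the nearest coding gene, and the Lmo2 site lies at -64052 bp from its TSS, in an intron of Gm34948.
Zfpm1 GATA site, chr8:122282910-122282996: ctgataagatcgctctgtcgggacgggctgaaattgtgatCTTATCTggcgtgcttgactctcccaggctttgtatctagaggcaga
Lmo2, chr2:103893944-103894030: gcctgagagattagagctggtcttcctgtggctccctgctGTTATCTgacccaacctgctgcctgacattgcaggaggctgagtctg
Trim10, chr17:36869370-36869456: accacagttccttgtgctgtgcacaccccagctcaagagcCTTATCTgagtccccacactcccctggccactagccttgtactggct
Kdr, chr5:75962386-75962472: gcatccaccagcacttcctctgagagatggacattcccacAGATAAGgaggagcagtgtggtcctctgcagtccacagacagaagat

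Most GFI1B peaks and most GATA sites had no listed peak of the other. The 157 shared sites held 157 of the 2018 GFI1B peaks, or 7.78% (6.65% to 9.04%), and 157 of 676 GATA sites, or 23.2% (20.1% to 26.6%). The share of GFI1B peaks is limited by the shorter GATA lists. No overlap by position alone was computed, so neither share can be called high or low. Of the shared sites, 57 (36.3%) held peaks of GFI1B, GATA1 and GATA2, 64 (40.8%) those of GFI1B and GATA2, and 36 (22.9%) those of GFI1B and GATA1. Among GATA only sites, 47 (9.06%) held both GATA factors. Seen from the GATA side, GFI1B was found at 57 of the 104 sites where GATA1 and GATA2 coincided, or 54.8% (44.7% to 64.6%). It was found at 36 of 146 sites with GATA1 and no GATA2 peak, or 24.7% (17.9% to 32.5%), and at 64 of 426 sites with GATA2 and no GATA1 peak, or 15% (11.8% to 18.8%). These 3 shares are a description and were not tested. The lists were called with thresholds set separately for each factor, so a site missing from a list was not shown to be unbound.

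The classes differed in where they lay with respect to genes. GFI1B only sites were most often promoter-proximal, defined as a centre at most 2 kb from a transcription start site (TSS) that belongs to a protein-coding transcript, with 827 of 1861 or 44.4% (42.2% to 46.7%). The share was 28.7% (24.9% to 32.8%) for GATA only sites, 149 of 519, and 16.6% (11.1% to 23.3%) for shared sites, 26 of 157. All 3 differences passed a two-sided exact test (Fisher, with Benjamini-Hochberg adjustment for 18 comparisons, threshold 0.05), with adjusted p = 2.0e-10 for GFI1B only against GATA only, 5.8e-12 for GFI1B only against shared and 0.00316 for shared against GATA only. With the GATA1 list alone, the last of these was 18.5% against 26.6% and did not pass the exact test (adjusted p = 0.199). The median distance to the nearest coding TSS was 4292 bp for GFI1B only, 9898 bp for GATA only and 20812 bp for shared sites. Within 500 bp of a TSS lay 28.1% of GFI1B only, 17.3% of GATA only and 8.92% of shared sites. Introns outside promoters held 49.7% (41.6% to 57.8%) of all shared sites, 37.4% (33.2% to 41.7%) of all GATA only sites and 29.3% (27.3% to 31.5%) of all GFI1B only sites. Intergenic sequence outside promoters held 24.8%, 27.4% and 20.7%. These shares count promoter sites in the base. Of the sites away from promoters alone, introns held 78 of 131 shared, 194 of 370 GATA only and 546 of 1034 GFI1B only sites.

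**Figure D1:**
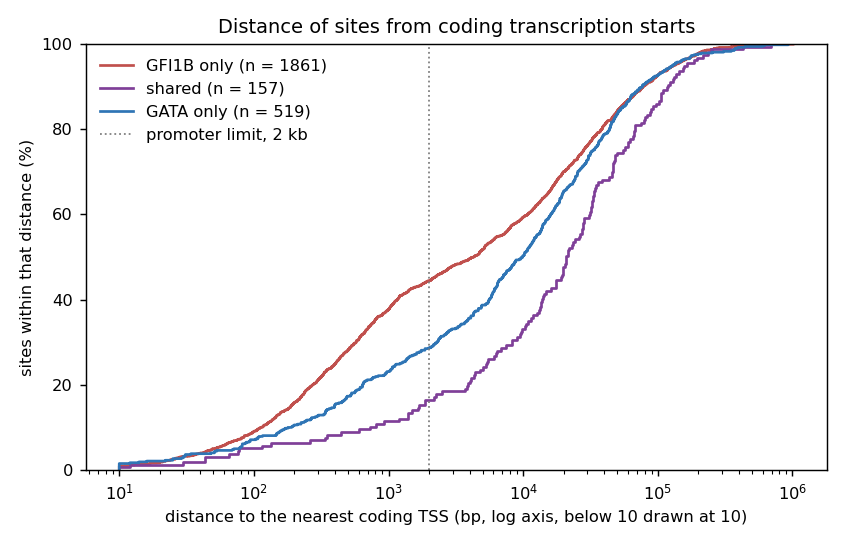
Cumulative share of sites (vertical axis, percent) by distance from site centre to the nearest coding TSS (horizontal axis, bp, log scale) for the 1861 GFI1B only, 157 shared and 519 GATA only sites. The shared curve lies lowest at the dotted 2 kb promoter limit, at 16.6%, below GATA only at 28.7% and GFI1B only at 44.4%.

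The GATA consensus was more frequent at shared and at GATA only sites than at GFI1B only sites. A GATA consensus lay in the central 400 bp of 81 of 157 shared sites, or 51.6% (43.5% to 59.6%), of 45.3% (40.9% to 49.7%) of GATA only sites and of 19.8% (18% to 21.7%) of GFI1B only sites. The low share at GFI1B only sites differed from both other classes (adjusted p = 1.0e-28 against GATA only and 1.6e-16 against shared, Fisher's exact test). Shared and GATA only sites did not differ past the threshold (adjusted p = 0.182, exact test), and the interval of their difference ran from -2.56 to 15.1 percentage points. That comparison depends on processing, since with the GATA2 list alone the shares were 57% and 44.3% (adjusted p = 0.019, exact test). With the GATA1 list alone they were 48.9% and 48.1% and did not differ past the threshold. Sequence of the same length in the genome held the GATA consensus in 9.91% of windows, and promoters in 4.8%. Flanking windows 2 kb either side of the sites held it in 8.92% at shared, 7.9% at GATA only and 9.73% at GFI1B only sites.

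The GFI1B consensus ran the other way. It was present at 505 of 1861 GFI1B only sites, or 27.1% (25.1% to 29.2%), at 14 of 157 shared sites, or 8.92% (4.96% to 14.5%), and at 13 of 519 GATA only sites, or 2.5% (1.34% to 4.25%). All 3 differences passed the exact test (adjusted p = 8.9e-43 for GFI1B only against GATA only, 1.4e-07 for GFI1B only against shared and 0.00218 for shared against GATA only). With the GATA1 list alone, GATA only sites held the GFI1B consensus in 0.633%, and with the GATA2 list alone in 2.93%. Genome windows held it in 3.17% and promoters in 2.53%, and the flanks of shared sites in 3.82%. The most frequent forms at GFI1B only sites were AATCACAGC, at 109 sites, and AATCTCAGC, at 97. A site with GFI1B but no GATA peak held neither consensus in 56.6% of cases, and a shared site in 44.6%.

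Within the GFI1B only class, promoter and distal sites had different consensus shares, a comparison that was not tested. Promoter-proximal GFI1B only sites held the GFI1B consensus in 32.2% (29% to 35.5%) and the GATA consensus in 8.22% (6.44% to 10.3%). Distal ones held them in 23.1% (20.6% to 25.8%) and 29% (26.3% to 31.9%). The distal GFI1B only sites thus held the GATA consensus in 29% although no GATA peak was listed at them. Their flanks held it in 9.62%, and the flanks of the promoter sites in 9.85%. The GATA share was 54.2% at distal shared sites and 50.3% at distal GATA only sites. Median GC content was 52%, 52.5% and 51.8% for GFI1B only, shared and GATA only sites, against a mean of 41.8% in genome windows. The E-box CAGATG or CAGCTG, bound by TAL1 and its partners, was found at 53.8% of GATA only, 51% of shared and 43% of GFI1B only sites. It is a frequent sequence, present in 37.9% of genome windows.

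**Figure D2:**
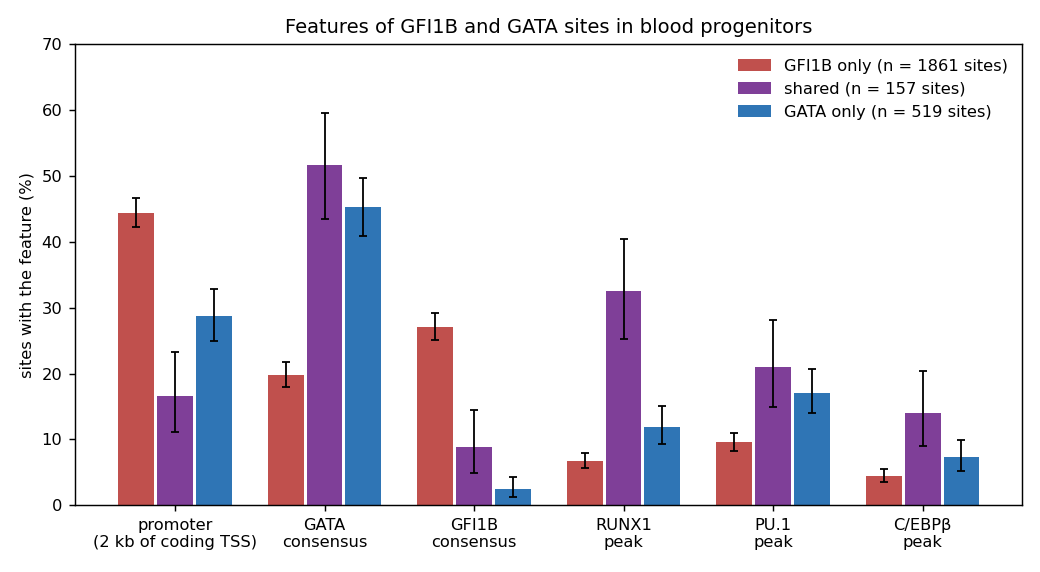
Percent of sites with each feature, by class (bars), with exact 95% intervals as error bars. The last 3 groups give overlap with the HP lists of RUNX1, PU.1 and C/EBPβ. The promoter and GFI1B consensus bars are highest for GFI1B only sites, and the RUNX1 bar is highest for shared sites, at 32.5%.

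At most shared sites the centres of the GFI1B and GATA peaks did not fall on the same position. The rule for shared sites takes peaks of 400 bp that overlap, which keeps their centres closer than this width. The distance from a GFI1B centre to the nearest GATA centre had a median of 53 bp (95% interval 45 to 63, from order statistics), with quartiles of 17 and 92 bp and a range of 0 to 391. Of 157, 75 (47.8%) lay within 50 bp and 27 within 10 bp. The centres of overlapping GATA1 and GATA2 peaks were nearer to each other, with a median of 19.5 bp over 104 pairs and 82.7% (74% to 89.4%) within 50 bp. Against GATA1 and GATA2 taken separately, GFI1B centres were at a median of 53.5 bp over 92 pairs and 62 bp over 121 pairs. For other HP factors overlapping GFI1B, the medians were 70 bp for RUNX1, 77.5 bp for PU.1 and 90.5 bp for C/EBPβ. These distances are descriptions, and the lists share cells, build and peak caller.

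The matches within shared sites lay accordingly. Over whole shared sites, a GATA consensus was found in 84, and it was nearer to the GATA centre in 54, nearer to the GFI1B centre in 29 and equally near in 1. Its median distance was 29 bp from the GATA centre and 56 bp from the GFI1B centre. Where a site held peaks of both GATA factors, as 57 of the 157 did, the nearer GATA centre was used, which favors the GATA side. The GFI1B consensus, found in 17 whole shared sites, was nearer to the GFI1B centre in 17 of 17, at a median of 12.5 bp against 81.5 bp from the GATA centre. Both were present together in 9 whole shared sites. Distances between the nearest matches were taken from midpoint to midpoint, so they are longer than the gap between the matches. They were 9 bp at Sox7, 35 bp at Slc16a10, 58 bp at Rpp25 and 72 bp at Asic1, among the sites printed above. They were 56 bp at Dlgap1, 58 bp at Manba, 59 bp at Camkmt, 86 bp at Ccng2 and 318 bp at Slc25a23, with a median of 58 bp. Of the 9 sites, 4 thus had midpoints 56 to 59 bp apart, on the same or on opposite strands. The matches lay on the same strand at 5 sites and on opposite strands at 4.

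**Figure D3:**
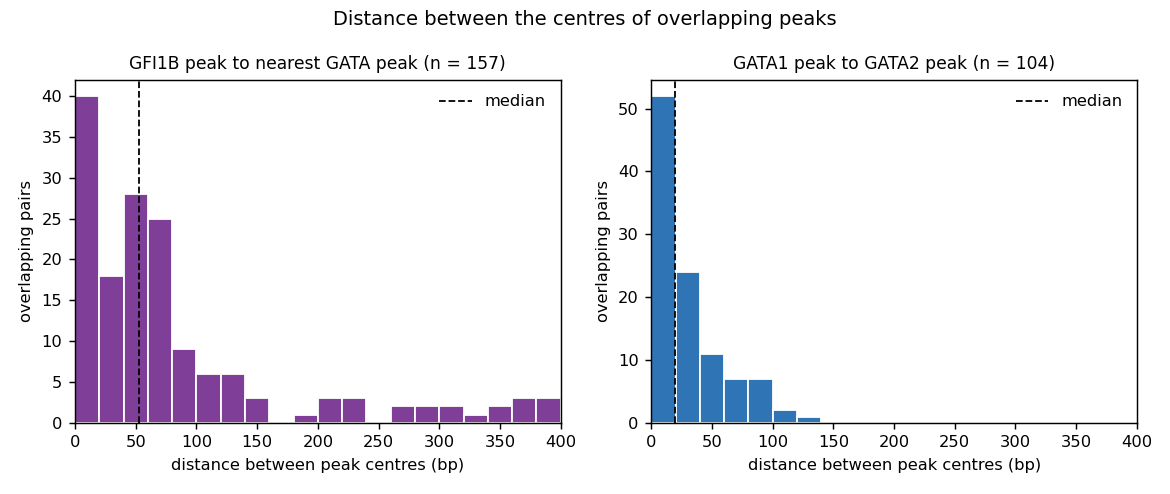
Number of overlapping peak pairs (vertical axis) by distance between peak centres in bp (horizontal axis, bins of 20 bp), for GFI1B and the nearest GATA peak at the 157 shared sites (left) and for the 104 overlapping GATA1 and GATA2 peaks (right). The dashed medians are 53 bp and 19.5 bp, and the GFI1B distances have a tail out to 391 bp.

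Beyond the shared sites, distances to the nearest listed peak of the other factor were mostly long. For GFI1B, 8 peaks (0.396%) had their nearest GATA centre at 400 to 1000 bp and 39 (1.93%) at 1000 to 10000 bp, whereas 849 (42.1%) had none within 1000000 bp. The median was 698301 bp. For the RUNX1 list of 977 peaks, the same GFI1B peaks gave 0.942%, 2.63% and 31.2% in these ranges and a median of 406394 bp. From the GATA peaks, the nearest GFI1B centre was at a median of 64609 bp. All of these figures depend on the length of the list to which the distance is taken.

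Shared sites held peaks of RUNX1 more often than either other class. RUNX1, a factor required for the emergence of blood cells, had a peak at 51 of 157 shared sites, or 32.5% (25.2% to 40.4%), at 11.9% (9.28% to 15.1%) of GATA only sites and at 6.72% (5.62% to 7.95%) of GFI1B only sites. PU.1 (Spi1), a myeloid ETS factor, had one at 21% (14.9% to 28.2%), 17.1% (14% to 20.7%) and 9.62% (8.32% to 11%), in the same order. C/EBPβ, a leucine zipper factor, had one at 14% (8.99% to 20.4%), 7.32% (5.23% to 9.91%) and 4.51% (3.62% to 5.56%). In total, 51% of shared sites, 28.9% of GATA only sites and 18.1% of GFI1B only sites held at least 1 of the 3. Of these 9 comparisons, 8 passed the test, and PU.1 at shared against GATA only sites did not (adjusted p = 0.287 by the exact test, interval of the difference -2.76 to 11.5 points). Sites listed in at least 7 of the 14 lists of the series numbered 9 of the shared, 4 of the GATA only and 4 of the GFI1B only sites. Without them the C/EBPβ shares of shared and GATA only sites were 10.1% and 6.6% and did not pass the exact test (adjusted p = 0.172). Shared sites are wider than single peaks, with a median of 462 bp against 400 bp, but in every class the number of sites with a RUNX1, PU.1 or C/EBPβ peak was the same over the central 400 bp alone. With the GATA1 list alone, PU.1 at GFI1B only sites did not pass the exact test (adjusted p = 0.132 against GATA only and 0.0523 against shared). Nor did C/EBPβ at GATA only sites with that list (adjusted p = 0.497 against GFI1B only and 0.093 against shared, exact test). For RUNX1 that list gave 39.1% of shared, 20.3% of GATA only and 7.27% of GFI1B only sites, and each comparison still passed.

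The RUNX1 list was also found at 45 of the 104 sites with both GATA1 and GATA2, or 43.3% (33.6% to 53.3%), against 15.8% (10.3% to 22.7%) of sites with GATA1 and 10.6% (7.81% to 13.9%) of sites with GATA2 without the other. The RUNX consensus TGTGGTT was present at 17.2% of shared, 15.6% of GFI1B only and 12.3% of GATA only sites, and in 9.19% of genome windows.

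Each site was next assigned to the protein-coding gene with the nearest TSS. Of 21000 coding genes, 1663 (7.92%) were nearest to a GFI1B only site, 143 (0.681%) to a shared site and 492 (2.34%) to a GATA only site, and these percentages are the background for the gene lists below. The GFI1B only and the GATA only set had 87 genes in common. These were 17.7% of GATA only genes, above the 7.92% of all coding genes with a GFI1B only site, and 5.23% of GFI1B only genes, above the 2.34% of all coding genes with a GATA only site. Of the 143 genes of shared sites, 39 (27.3%) also had a GFI1B only site and 18 (12.6%) also a GATA only site, again above those percentages, and 9 genes had all 3 kinds. These overlaps were not tested. Of the 19 gene lists, 16 stood above the background for GFI1B only sites, 11 for shared and 12 for GATA only sites. No list was tested, the length of sequence around genes was not taken into account, and some genes are in more than 1 list.

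Transcription factors of blood formation were nearest to sites of every class. Of 28 such genes, 11 (39.3%) had a GFI1B only site, 4 (14.3%) a shared site and 7 (25%) a GATA only site. The shared sites belonged to Runx1, Hhex (a homeobox factor of blood and endothelium), Zfpm1 and Gfi1, the close relative of GFI1B. At Runx1 a shared site with all 3 factors, RUNX1 and PU.1 lay in an intron, 3897 bp downstream of the nearest TSS, with a GFI1B only site at 2263 bp and a GATA only site at 24366 bp. At Hhex the shared site, again with all 3 factors, lay in an intron 921 bp downstream of the TSS, beside a GFI1B only site at 1886 bp. GFI1B was listed without GATA close to the TSS of Myb at 21 bp, Spi1 at -36 bp, Gfi1b at -39 bp and Gfi1 at -515 bp, where negative values are upstream. GATA was listed without GFI1B at Nfe2 (-146 bp), Lyl1 (211 bp) and Tal1 (263 bp), which encode partners or targets of GATA factors. The Tal1 site was present in 9 and the Nfe2 site in 7 of the 14 lists of the series. Lyl1 also had a GFI1B only site at -1410 bp from its TSS, at chr8:84699847-84700246, which PU.1 also held.

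The genes of the factors themselves were bound in different ways. The Gfi1b gene (chr2:28609450-28621982, minus strand) had the GFI1B only site at its own promoter, where PU.1 was also listed. Beyond its last base lay 3 shared sites at chr2:28602155-28602606, chr2:28599235-28599662 and chr2:28597928-28598417, which are 7069, 10001 and 11277 bp past the end of the gene. The farthest held GFI1B, GATA1, GATA2 and RUNX1 and 2 GATA matches, the middle one GFI1B, GATA2 and RUNX1, and the nearest one GFI1B and GATA1. By the nearest-TSS rule these 3 sites were assigned to Gtf3c5, a subunit gene of the RNA polymerase III factor TFIIIC, from whose TSS they lie at -14894, -16170 and -19102 bp, starting with the farthest from Gfi1b. Gfi1 had a shared site at -33536 bp from its TSS, in an intron of Evi5, which all 6 HP lists and 11 of the 14 lists of the series contain. Gata2 had 1 site, GFI1B only, 1210 bp downstream of its nearest TSS in an intron, with the GFI1B consensus printed above. Gata1 was the nearest gene of no site, but a GFI1B only site at chrX:7948104-7948503, assigned to Hdac6, lay 10956 bp past its end. Itga2b, which encodes the sorting marker CD41, had a GATA2 site 301 bp upstream of its TSS that PU.1 also held and GFI1B did not. Of the 6 progenitor markers considered, Itga2b, Gata2, Runx1 and Tal1 had a site and Kit and Cd34 had none, which concerns binding and not expression.

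**Figure D4:**
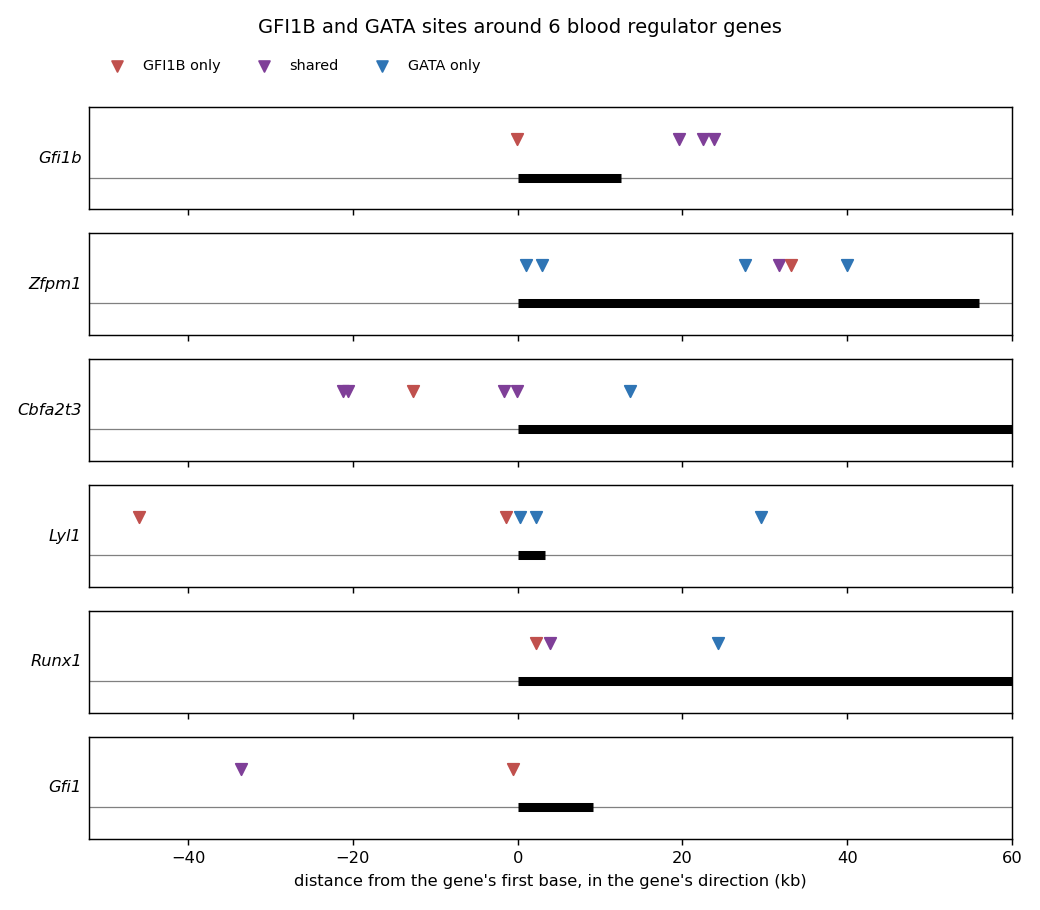
Sites around 6 regulator genes. The horizontal axis is the distance from the first base of the gene in its own direction (kb), the thick bar is the gene (cut at 60 kb), and triangles mark GFI1B only, shared and GATA only sites. At Gfi1b the GFI1B only site sits at the start and the 3 shared sites past the end, and Zfpm1 carries 4 GATA only sites.

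Genes of cofactors carried several of the shared sites. Of 12 GFI1B cofactor genes, 2 had a shared site, 2 a GFI1B only site and 0 a GATA only site by the nearest-TSS rule. The shares of all coding genes were 0.681%, 7.92% and 2.34%. Gse1, which encodes a component of the LSD1 and CoREST complex, had 1 GFI1B only site at -152748 bp and 4 shared sites, the latter all in its introns and at -118744, -116964, -13169 and -1690 bp from the nearest TSS. Its introns also held a GATA only site with RUNX1 and PU.1 at chr8:120293449-120293848 and a GFI1B only site with C/EBPβ at chr8:120239221-120239620, both assigned to Cibar2. Phf21a (BHC80, another LSD1 complex member) had 1 shared site at -9752 bp, and Rcor1 a GFI1B only site at 54828 bp. No site of any class was nearest to Kdm1a or to Hdac1, Hdac2 and Hdac3. Of 17 genes for GATA cofactors and partners, 2 had a shared site, 5 a GFI1B only site and 6 a GATA only site. Cbfa2t3 (ETO2, a corepressor in GATA and TAL1 complexes) had 4 shared sites, at -261, -1856, -20812 and -21435 bp, the last 2 with GFI1B, GATA1 and GATA2. It also had 1 GFI1B only site at -12947 bp and 1 GATA only site at -7481 bp. Zfpm1, which encodes FOG1, had 4 GATA only sites, from 759 to 39713 bp downstream of its nearest TSS, 1 shared site with all 3 factors at 31399 bp and 1 GFI1B only site at 32931 bp. Lyl1 had 3 GATA only sites beside its GFI1B only site, Tcf3 had 1 GATA only site, and Crebbp and Zfpm2 (FOG2) had GFI1B only sites at -15 and 734 bp.

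Gse1, Cbfa2t3, Zfpm1 and Lyl1 are all on chromosome 8. This chromosome held 26 of 157 shared sites, or 16.6% (11.1% to 23.3%), 9.63% (7.24% to 12.5%) of GATA only sites and 7.74% (6.56% to 9.05%) of GFI1B only sites, against 4.83% of coding genes. Its part in the counts of these genes was not tested. Without chromosome 8, an alternative chosen after seeing the data, all 18 comparisons of classes kept their direction and their side of the threshold, with 131 shared sites.

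Heme genes had sites of the GATA only class at core enzymes, and erythroid genes had both GFI1B only and GATA only sites. Of 18 genes for heme synthesis and iron, 4 (22.2%) had a GATA only site, 2 (11.1%) a GFI1B only site and 1 (5.56%) a shared site. The GATA only sites were at Cpox (-10 bp), Ppox (158 bp), Alas2 (2405 bp) and Abcb10 (-5737 bp), of which the first 3 encode heme synthesis enzymes and Abcb10 a mitochondrial transporter. The shared site was at Fth1, the ferritin heavy chain, at 4766 bp, and the GFI1B only sites at the heme exporter gene Flvcr1 (-219 bp) and at Hmox1 (-3943 bp), which encodes a heme-degrading enzyme. Of 23 erythroid genes, 4 (17.4%) had a GFI1B only site and 3 (13%) a GATA only site. The GATA only sites were at Trim10 (-147 bp), the erythropoietin receptor gene Epor (924 bp) and Sptb (36605 bp). Erythroid genes nearest to GFI1B only sites included Cited2 with 3 sites (closest at 40 bp), Epb41 with 3 (606 bp) and Bcl2l1 with 2 (12677 bp). None of these 23 genes had a shared site, where 0.681% of all coding genes had one, and erythroid genes outside the list were not counted. Among 24 megakaryocyte and platelet genes, 5 (20.8%) had a GATA only, 4 (16.7%) a GFI1B only and 2 (8.33%) a shared site. The platelet receptor gene Gp1ba had GATA1 and GATA2 78 bp upstream of its TSS and no GFI1B. The shared sites of this list were at Thbs1 (thrombospondin), at -45489 bp, and at Zfpm1, given above. Itgb3, the partner of CD41, had a GFI1B only site at 10997 bp.

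Endothelial genes had sites of all classes. Of 34, 8 (23.5%) had a GFI1B only site, 5 (14.7%) a GATA only site and 2 (5.88%) a shared site. GFI1B only sites lay close to the TSS of Egfl7 (-37 bp), Pecam1 (-273 bp), which encodes an endothelial adhesion molecule, and Nos3 (963 bp), the endothelial nitric oxide synthase, and at 14303 bp from Sox7. The shared sites belonged to Flt1, a VEGF receptor, with 2 sites in its introns at 4422 and 67954 bp, both with GATA2 and without GATA1, and to Sox7, an endothelial transcription factor, at -34977 bp within an intron of Pinx1. The closest GATA only sites were at Erg, an ETS factor of blood and endothelium, at -12577 bp, and at Kdr, which encodes the VEGF receptor Flk1, in an intron at 16036 bp. Of 24 heart and muscle genes, 4 had a GFI1B only site, among them Tnni1 (-4687 bp), and Gata6 also had a GATA only site at -1074 bp.

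Genes of signaling and survival had sites mainly of the GFI1B only class, which is also the largest. Of 24 genes of TGF-β and BMP signaling, 10 (41.7%) had a GFI1B only site, 3 (12.5%) a GATA only site and 1 (4.17%) a shared site. Smad1 had 3 GFI1B only sites, the closest at -176 bp, and the BMP target genes Id3 (-243 bp) and Id1 (-1354 bp) had 1 each, as had Bmpr2 (293 bp), a BMP receptor, and the common mediator Smad4 (833 bp). Smad7, an inhibitor of the pathway, had a GFI1B only site at -427 bp and 2 distant shared sites, the nearer at 122920 bp, and Smad5 had a GATA only site at 330 bp. Of 20 apoptosis genes, none had a shared or GATA only site, where 0.681% and 2.34% of all coding genes had one. Those nearest to a GFI1B only site numbered 7 (35%), against 7.92% of all coding genes. They were Bcl2l11 (625 bp), Bid (2057 bp), Mcl1 (3432 bp), Bad, Bcl2l1, Bbc3 and Bmf, all of the BCL2 family. Of 23 immediate early genes, 5 (21.7%) had a GFI1B only site, including Klf2 (-237 bp), Fosb (-418 bp), Jund (1024 bp) and Fos, with 3 sites (closest at -1527 bp). Jun had the shared site of this list, at -104748 bp, and Klf6 and Dusp2 GATA only sites at -16257 and -7538 bp.

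Among genes of cytokine signaling, myeloid cells, the cell cycle, mast cells and the Notch pathway, 1 to 4 genes per list had a GFI1B only site. In this order they made up 13.8%, 9.09%, 7.14%, 5.56% and 10% of their lists, against 7.92% of all coding genes. Among 29 genes of cytokine receptors and signaling, 4 had a GFI1B only site, with Jak1 at 612 bp and Sh2b3 at -1985 bp closest, and the inhibitor gene Socs1 had a shared site at 47697 bp. Of 22 myeloid genes, Mpo (myeloperoxidase, -311 bp) and Fcgr1 had a GFI1B only site, and Cebpe, a granulocyte factor, a shared site at 6116 bp with RUNX1 and C/EBPβ. Of 28 cell cycle genes, Mycn (-84 bp) and Myc had GFI1B only sites, Gadd45a a shared site at -12 bp, and Btg2, E2f2 and Myc GATA only sites. Of 18 mast cell and eosinophil genes, only Gata3 had a site, GFI1B only and 190104 bp away. Notch pathway genes numbered 2 of 20 with GFI1B only sites, Hes1 (978 bp) and Maml1 (1331 bp), and 1 with a GATA only site, Hey1. As lists without a particular link to blood, 9 of 72 ribosomal protein genes (12.5%), 5 of 35 splicing genes (14.3%) and 1 of 31 proteasome genes (3.23%) had a GFI1B only site. None had a shared site and 1 ribosomal gene had a GATA only site, where 0.681% and 2.34% of all coding genes had one. The ribosomal and splicing shares stood above the 7.92% of all coding genes for GFI1B only sites, as did most of the blood lists.

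**Figure D5:**
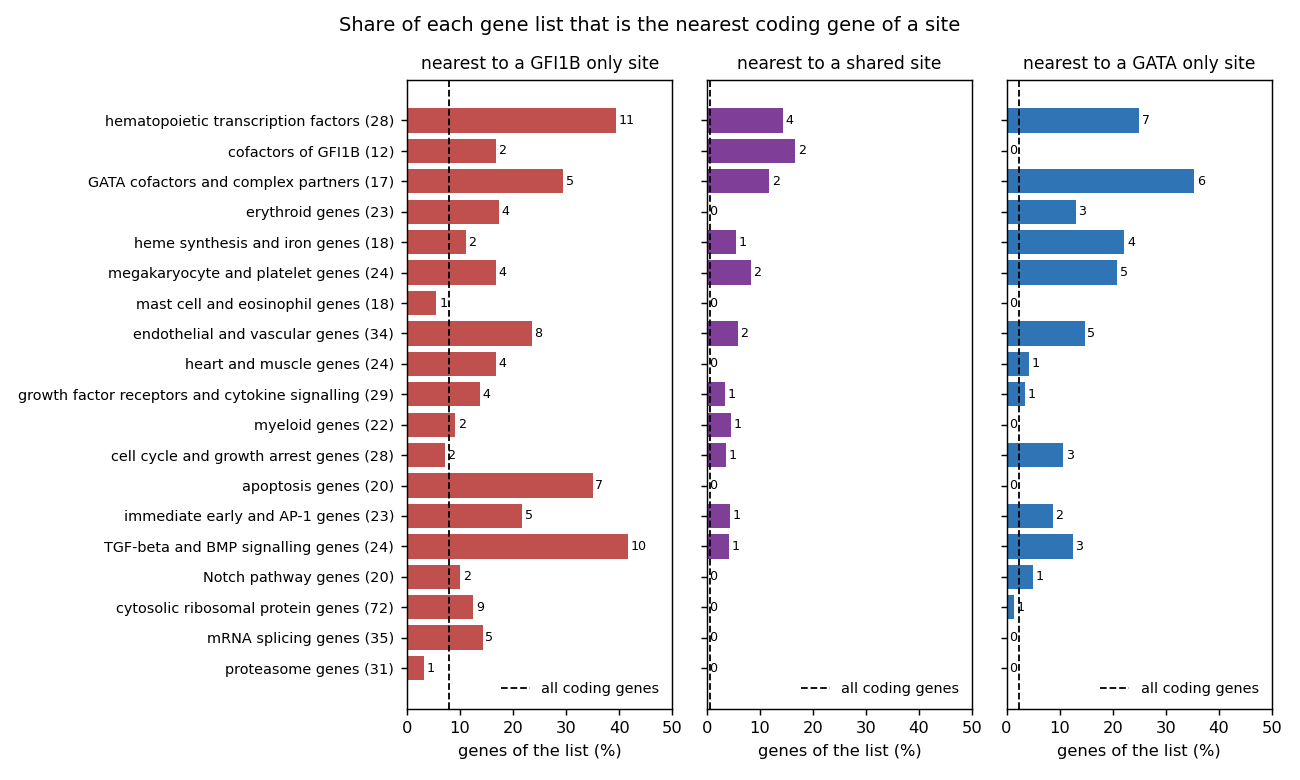
Percent of the genes of each list (horizontal axis, list size in brackets) that were the nearest coding gene of a GFI1B only, shared or GATA only site, with the number of genes beside each bar. Dashed lines mark the share of all 21000 coding genes, at 7.92%, 0.681% and 2.34%, and the TGF-β and BMP bar of the GFI1B only panel reaches 41.7%.

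Few genes collected several sites. Of 1663 genes of GFI1B only sites, 174 had 2 or more and the highest number was 4, at Pik3r1, which encodes the regulatory subunit of PI3-kinase. Add3 (adducin, of the membrane skeleton), Amotl1, Cited2 and Dusp4, a MAP kinase phosphatase, followed with 3 each, in alphabetical order among ties. Of the 143 genes of shared sites, 9 had 2 or more, led by Cbfa2t3 and Gse1 with 4 and Gtf3c5 with 3, and then Esp38 and Flt1 with 2. Of 492 genes of GATA only sites, 21 had 2 or more, led by Sfi1 and Zfpm1 with 4, the anti-proliferative gene Btg2 and Lyl1 with 3, and Adgrg1 with 2. None of the 4 Sfi1 sites held a GATA consensus, whereas all 4 at Zfpm1 did.

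The shared sites with GFI1B, GATA1 and GATA2 were ranked by the number of other HP lists present. Of the 57, 4 held RUNX1, PU.1 and C/EBPβ as well, 10 held 2 of them, 23 held 1 and 20 held none. The 4 were the site near Gfi1 and sites whose nearest coding genes were Rpp21, Esp38 and Axin2, and they were present in 11, 14, 11 and 10 of the 14 lists. The Esp38 site lies in an exon of the noncoding gene AY036118 and the Axin2 site in an intron of Gm36876, at -101908 and 91537 bp from the coding TSS, and none of the 4 held a GATA or GFI1B consensus. Among those with 2 further lists were the sites near Ahi1, Ap1m1, Cebpe, Mdga1, Micall2 and Mylk3, each with RUNX1 and either PU.1 or C/EBPβ. The Mylk3 site lay 114 bp upstream of a TSS and the Micall2 site 2267 bp downstream.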

How the data were processed

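ChIP-seq peaks of GFI1B, GATA1 and GATA2 in HP were analysed, 1 list each. According to the methods of the study, the authors trimmed adapters with CutAdapt, aligned reads to mm10 with Bowtie, kept uniquely placed reads, removed duplicates with Picard, called peaks with MACS against the input of the stage at a p-value threshold set by eye for each list, and refined them with polyPeak. Versions are not given in the sources used here. The deposited values are other than counts or signal: peak boundaries in bp, with a width of 400 bp and no score. The read totals that the study lists were not used here. The remaining 11 lists of the series served as annotation.

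Peaks overlapping by at least 1 bp were joined. Genes, TSS (26032 coding, RefSeq) and sequence were those of GRCm38, which holds all peaks of the 3 lists. Shares of 2 classes were tested with the two-sided Fisher exact test, with Benjamini-Hochberg adjustment over 18 tests. The programs (Python 3.11.15, NumPy 2.4.6, SciPy 1.17.1, matplotlib 3.10.9) were tested on simulated data. Alternatives were other overlap rules, each GATA list alone, other promoter, gene and consensus definitions, and subsets of sites.

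The members, the gene lists and the tests were chosen with earlier results of these data known. Genes named are list members nearest to shared sites, the 4 or fewer closest genes of each list in the other classes, the 5 genes with most sites per class, the shared sites with most HP lists, and Gfi1b, Gfi1, Gata1, Gata2 and Itga2b. Other genes, such as Smad4, Id1 and further apoptosis genes, were named after their values were seen.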

Additional observations from a re-analysis of the deposited data

Results flagged for a closer look

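Of the 8 lists of other populations, which the comparisons above use only to count lists per site, 5 had peaks at more than 1.91% of the 157 shared sites, the limit that a count of 0 (3 counts) allows. The other lists, GATA2 in hemangioblasts, RUNX1 in macrophages and ELK4 in mesoderm, had 3, 2 and 1 and were not above it. The macrophage lists of PU.1 and C/EBPβ hold 82866 and 55471 peaks. At this length, passing the limit carries no information about shared sites. Their share over all regions of the series was not computed. The PU.1 list of macrophages had a peak at 79 shared sites, or 50.3% (42.2% to 58.4%), against 43.7% of GATA only and 38.4% of GFI1B only sites. The C/EBPβ list of macrophages had one at 41, or 26.1%, against 26.8% and 26.4%. The earlier C/EBPβ lists had one at 6 sites in hemangioblasts, 4 in hemogenic endothelium and 4 in mesoderm. Without sites listed in at least 7 of the 14 lists, the numbers of shared sites were 70, 33, 2, 1 and 2 of 148 in the same order.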

How the results depend on the processing

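Of 150 alternative values for the 18 class comparisons, 142 kept their direction and their side of the threshold and none reversed. Using the GATA1 list alone, the difference in promoter share between shared and GATA only sites was -8.1 percentage points (adjusted p = 0.199, exact test). The PU.1 differences were -4.43 between GFI1B only and GATA only sites and -7.27 between GFI1B only and shared sites, and the C/EBPβ differences -1.5 between GFI1B only and GATA only and 7.8 between shared and GATA only sites, and none of these passed the test (Fisher's exact test). With that list there were 92 shared sites and 85 genes nearest to them, and the smaller lists leave fewer sites to compare. Without sites in at least 7 of the 14 lists the C/EBPβ difference between shared and GATA only sites was 3.53 points and did not pass. The GATA consensus difference between shared and GATA only sites passed with the GATA2 list alone, at 12.8 points (adjusted p = 0.019, exact test), and with looser consensus forms, at 8.58 points (adjusted p = 0.0406). With the GATA1 list alone this difference was 0.812 points and did not pass. The cause of these changes was not tested. The other counts, and the median distance between centres, stayed within 1.5 times or within their interval. No paired analysis was possible because each factor had 1 list. A stricter peak threshold could not be tried, since the lists hold no score.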

Other observations

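The sites were unevenly spread over chromosomes. Chromosome 8 held 14.4% of GATA1, 11.1% of GATA2, 8.42% of GFI1B and 10.3% of RUNX1 peaks in HP, against 4.75% of the assembled length used. In other lists of the series its share ran from 2.27% to 16.5%. Chromosome X held 1.02% of GFI1B only and 0.771% of GATA only sites and no shared site, against 4.3% of coding genes. For the shared sites, 0 of 157 allows a share of up to 1.91% by the limit of 3 counts, which is not an exact interval.

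The order of peaks in the lists, whose meaning is not stated in the sources used here, went with sharing. Cut in file order into 5 equal parts, the GFI1B list had 12.9% of its peaks in shared sites in the leading part and 5.45% to 7.18% in the others. For GATA1 the leading part stood at 52% and the others at 30% to 38%. The leading and the closing part of the GFI1B list held the GFI1B consensus in 31.5% and 19.1% of peaks.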
